A study of Mus musculus with 8 samples.

Results

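The genes described here load and present peptides on MHC molecules. They were 10 genes chosen by name, the class I genes H2-K1, H2-D1, B2m, Tap1 and Tap2 and the class II genes H2-Aa, H2-Ab1, H2-Eb1, Cd74 and Ciita. Their rows were found by symbol in all 3 deposited tables, out of 15142 genes listed in every table, and all 10 were among the 11347 genes tested. RNA was measured in HSCs (lineage-, Sca-1+, c-kit+, CD150+, CD48-/low) sorted from adult wild-type C57BL/6 mice. Control BM HSC were bone marrow HSCs of mice without phenylhydrazine (PHZ), given PBS per the labels and called untreated in the methods (3 libraries). PHZ destroys red blood cells and was injected on 2 days at 60 mg/kg. PHZ BM HSC came from bone marrow (3 libraries) and PHZ SP HSC from spleen (2 libraries), both 3 days after the last injection. Untreated spleen was not analysed here, so organ and treatment cannot be told apart when PHZ SP HSC are set against control BM HSC. The labels do not say whether libraries of a group came from separate mice, so p-values measure the spread between these samples, which may be technical.

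Class I molecules present peptides made inside the cell, and nearly every nucleated cell carries them. A heavy chain (H2-K1 or H2-D1 in this strain) pairs with beta-2 microglobulin, encoded by B2m, and receives peptides that the Tap1 and Tap2 transporter pumps into the endoplasmic reticulum. Class II molecules present peptides of engulfed proteins and are best known from B cells, dendritic cells and macrophages, but hematopoietic stem and progenitor cells can carry them too. Their alpha and beta chains (H2-Aa with H2-Ab1, and H2-Eb1) assemble on the invariant chain Cd74, which proteases later trim away, and Ciita is the coactivator that switches the class II genes on. C57BL/6 mice do not make the alpha chain that would pair with H2-Eb1.

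The libraries held 8216626 to 13201359 reads, worked back from FPKM (fragments per kilobase, scaled to depth, a level per gene length), and the ribosomal precursor Rn45s took 43.3% to 48.6% of them. Within groups, r across genes was 0.903 to 0.976 (genes are not independent). The closest pair, PHZ BM HSC replicates 1 and 2, still differed in reads with a chi-square of 9.04 per degree of freedom, above sampling noise. All 10 markers of HSCs examined, such as Procr, Slamf1 and Mecom, were above 0 in every library, with summed levels of 418 to 561 FPKM in control BM HSC, 464 to 565 in PHZ BM HSC and 522 to 540 in PHZ SP HSC.

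Of the 10 genes, 7 lie on chromosome 17 between 33996012 and 35267497 (mouse build GRCm38.p6), in the MHC locus. B2m (122147687 to 122153082 on chromosome 2), Ciita (10480014 to 10531064 on chromosome 16) and Cd74 are elsewhere. Promoters are shown because class I and class II genes are known for distinct control elements, and because H2-K1 with H2-D1, and H2-Aa with H2-Eb1, held to like patterns over the libraries. RefSeq promoter sequences were found for 6 of the 10 (H2-K1, H2-D1, B2m, Tap1, H2-Aa and H2-Eb1). The 180 bases before the annotated start of 5 of them read as follows, in the direction of the gene, with matches to the motifs below in capitals.
H2-K1 (chr17:34000348-34000527, minus strand): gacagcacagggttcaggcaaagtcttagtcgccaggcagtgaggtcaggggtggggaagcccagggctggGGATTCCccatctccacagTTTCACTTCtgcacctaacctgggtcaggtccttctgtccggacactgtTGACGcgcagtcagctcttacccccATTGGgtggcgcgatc
H2-D1 (chr17:35262914-35263093, plus strand): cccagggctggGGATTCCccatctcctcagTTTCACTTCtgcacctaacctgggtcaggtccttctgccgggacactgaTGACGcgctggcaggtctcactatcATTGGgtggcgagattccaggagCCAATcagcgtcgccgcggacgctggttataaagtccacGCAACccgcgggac
B2m (chr2:122147507-122147686, plus strand): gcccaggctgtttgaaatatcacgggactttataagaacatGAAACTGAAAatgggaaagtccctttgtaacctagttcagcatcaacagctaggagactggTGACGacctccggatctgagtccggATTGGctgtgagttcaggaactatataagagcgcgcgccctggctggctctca
H2-Aa (chr17:34287824-34288003, minus strand): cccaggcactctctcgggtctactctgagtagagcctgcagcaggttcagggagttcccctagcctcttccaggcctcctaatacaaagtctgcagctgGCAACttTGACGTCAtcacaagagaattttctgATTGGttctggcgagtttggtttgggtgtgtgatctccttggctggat
H2-Eb1 (chr17:34305687-34305866, plus strand): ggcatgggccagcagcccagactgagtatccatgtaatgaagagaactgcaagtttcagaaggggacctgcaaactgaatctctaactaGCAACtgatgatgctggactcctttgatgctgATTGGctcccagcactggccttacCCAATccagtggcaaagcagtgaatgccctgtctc

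Capitals mark 6 short motifs searched on both strands: CCAAT (the core that NF-Y binds, ATTGG on the other strand), TGACG (a core bound by CREB and ATF), TTTC repeated after any 2 bases (the core of the interferon-stimulated element, a like repeat of GAAA on the other strand), TTTCNNTTC (that core with 1 T fewer, neither pattern holding the other), GGATTCC (part of the NF-kB site of class I heavy chain promoters, which NF-kB sites of other letters would not match) and GCAAC (a core of the X1 box of class II promoters). Of 27025 promoters searched from 250 bases before to 50 bases after the start, 37.9% held CCAAT, 21% TGACG, 35.4% GCAAC, 3.49% the repeat of TTTC, 7.56% TTTCNNTTC and 3.86% GGATTCC. Both class I heavy chain genes held the last of these, 109 bases before the start in H2-K1 and 169 bases before it in H2-D1. In each of them TTTCACTTC, TGACG and ATTGG followed in that order, and the longest run of bases that the 2 promoters share was 47 bases, against 8 for H2-K1 and B2m and 8 for H2-Aa and H2-Eb1. The B2m stretch held GAAACTGAAA, a match to the interferon-stimulated core, 139 bases before the start, TGACG 78 bases and ATTGG 53 bases before the start. In H2-Aa, GCAAC and ATTGG began 81 and 48 bases before the start, 33 bases apart, and in H2-Eb1 91 and 59 bases before it, 32 bases apart. GCAAC followed by ATTGG at a distance of 25 to 40 bases, on either strand, was found in 220 of all promoters, which is 0.814%. Between them, H2-Aa carried TGACGTCA, which holds TGACG on both strands with overlap. These matches describe letters in the windows and were not tied to any factor by these data.

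The order of levels was alike in the 3 groups. B2m was among the 3 highest of all 11347 genes in each group, and H2-K1 and H2-D1 followed with every library of each gene below every library of the one before. Cd74 came next, also apart from its neighbours, at a rank of 272 of 11347 in control BM HSC, 439 in PHZ BM HSC and 196 in PHZ SP HSC. The class II chains H2-Aa, H2-Ab1 and H2-Eb1 and the transporters Tap1 and Tap2 lay at 25.5 to 49.3 FPKM in group means, and most neighbours among them overlapped between libraries. Ciita was last in each group, at 2.02 ± 1.78 FPKM (SD, n = 3) in control BM HSC.

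**Figure D1:**
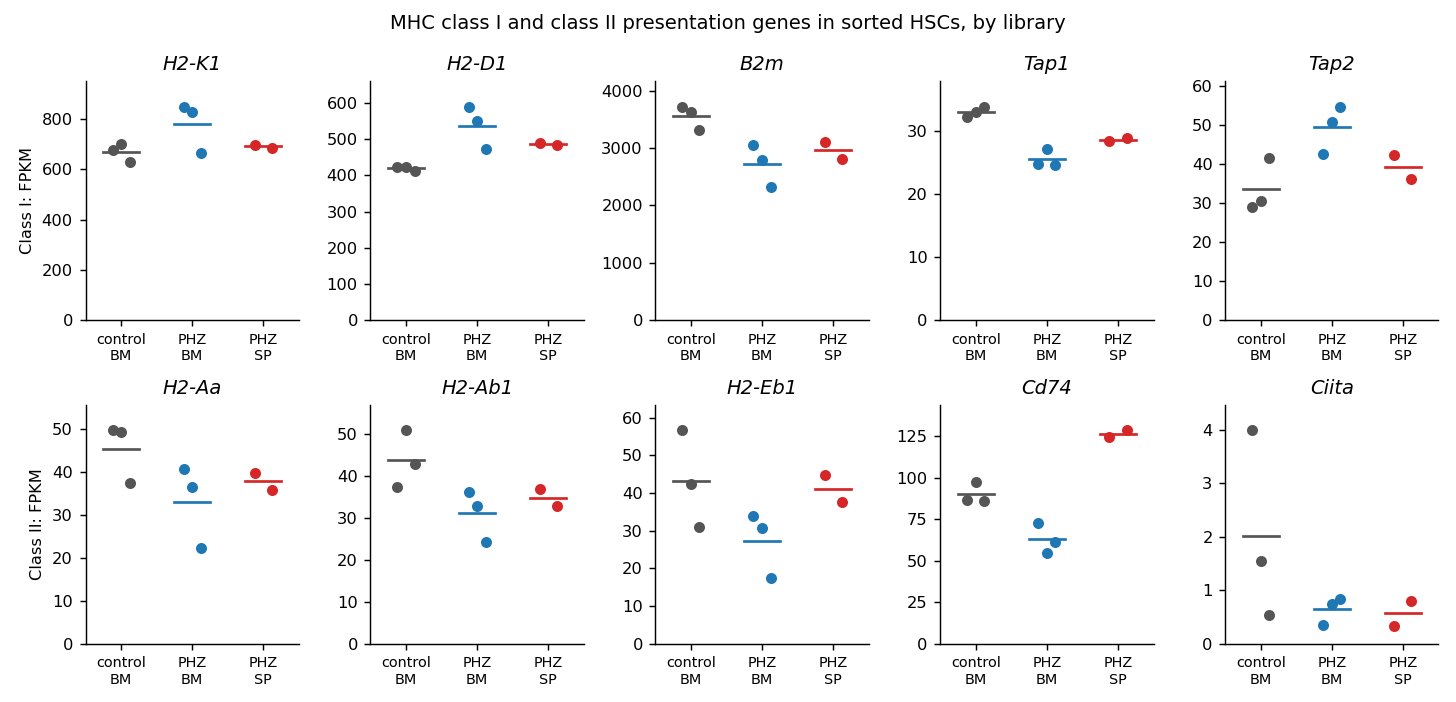
Level of each gene (vertical axis, FPKM from 0) in the 8 libraries, class I genes in the upper row and class II genes in the lower row; points are libraries, from replicate 1 on the left, and bars are group means. Cd74 is the gene in which the 2 PHZ SP HSC libraries, at 125 and 129 FPKM, stand above all the others.

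In PHZ BM HSC against control BM HSC, which compares anemic with unperturbed marrow, none of the 10 genes passed an adjusted p of 0.05 in limma, where 2.74% of all genes tested did. Without adjustment, 7 of the 10 had p below 0.05, as did 16.6% of all genes, and 6 had groups of libraries that did not overlap, against 23.9% of all genes. The heavy chains and Tap2 had positive differences, and B2m, Tap1 and the class II genes negative ones, Ciita being tested only through 2 control libraries that reached 1 FPKM. The median difference on the log2(FPKM + 1) scale was 0.21 over the 5 class I genes and -0.50 over the 4 class II genes without Ciita, beside 0.01 over all genes tested. When 1 library was left out, the class I median ranged from 0.15 to 0.32, the highest without PHZ BM HSC replicate 3. In bulk samples such as these, fewer cells of a type and less RNA per cell cannot be told apart.

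The heavy chain H2-K1 stood at 678, 702 and 628 FPKM in control BM HSC, 849, 826 and 665 in PHZ BM HSC, and 698 and 684 in PHZ SP HSC. PHZ BM HSC replicates 1 and 2 were above all other libraries, and replicate 3 lay within the range of the controls. The difference of 0.21 ± 0.11 (SE) between the marrow groups did not pass (limma adjusted p = 0.354). H2-D1, the other heavy chain, had 424, 424 and 413 FPKM in control BM HSC, 591, 550 and 473 in PHZ BM HSC, and 491 and 484 in PHZ SP HSC. Each library of PHZ-treated mice, from marrow or spleen, lay above each control library. The differences from control BM HSC were 0.35 ± 0.10 in PHZ BM HSC (limma adjusted p = 0.112) and 0.21 ± 0.12 in PHZ SP HSC (adjusted p = 0.400). Without PHZ BM HSC replicate 3 the former was 0.44 and passed the threshold (adjusted p = 0.0174).

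The light chain had the opposite sign. B2m stood at 3725, 3639 and 3310 FPKM in control BM HSC, 3049, 2794 and 2320 in PHZ BM HSC, and 3115 and 2810 in PHZ SP HSC. Each control library lay above each PHZ library. The difference from control BM HSC was -0.39 ± 0.10 in PHZ BM HSC, or 0.761 of the control level (limma adjusted p = 0.0766), and -0.26 ± 0.12 in PHZ SP HSC (adjusted p = 0.305). With voom on the reads in place of FPKM the former was -0.40 and passed (adjusted p = 0.0498).

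The opposite signs of heavy and light chain show most clearly as a ratio within each library, which no scaling between libraries can change. The summed heavy chains were 0.296, 0.309 and 0.314 of B2m in control BM HSC, 0.472, 0.492 and 0.490 in PHZ BM HSC, and 0.382 and 0.416 in PHZ SP HSC. The 3 groups did not overlap, and PHZ SP HSC lay between the marrow groups. The mean ratio was 0.485 ± 0.0111 in PHZ BM HSC and 0.306 ± 0.00963 in control BM HSC (SD, n = 3 each), a gap wider than either spread. The ratio was formed with the levels of its genes known and is given without a test. H2-K1 and H2-D1 resemble each other and other class I genes: of the 50-base windows of their transcripts, 8.79% and 14.3% also occur in transcripts of other genes, so some of their reads may be shared. B2m had none.

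The transporter subunits also had differences of opposite sign. Tap1 had 32.1, 33.0 and 33.8 FPKM in control BM HSC, 24.7, 27.2 and 24.6 in PHZ BM HSC, and 28.4 and 28.8 in PHZ SP HSC. The 3 groups did not overlap, yet the difference between the marrow groups, -0.36 ± 0.14, did not pass (limma adjusted p = 0.231). Tap2 had 28.8, 30.5 and 41.3 FPKM in control BM HSC, 42.45, 50.8 and 54.6 in PHZ BM HSC, and 42.2 and 36.1 in PHZ SP HSC. The marrow groups were apart by the narrow gap between 41.3 and 42.45 FPKM, with a difference of 0.55 ± 0.18 (limma adjusted p = 0.138). Tap2 stood at 0.898 to 1.22 times Tap1 in control BM HSC, 1.72 to 2.22 times in PHZ BM HSC and 1.25 to 1.49 times in PHZ SP HSC. Strand was not stated for the counting, and exons of the gene Gm15821 lie antisense over 14.1% of Tap2 exon bases and those of Psmb9 over 3.87% of Tap1 exon bases, so their reads cannot be told apart there.

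**Figure D2:**
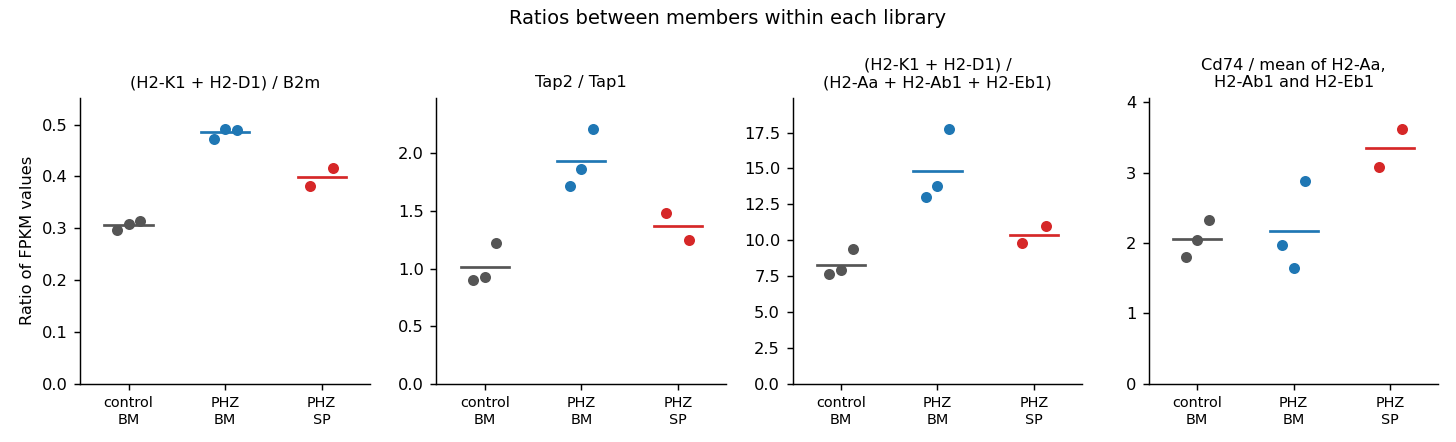
Ratios of FPKM values between genes of the same library (vertical axes, from 0); points are libraries and bars are group means. Summed heavy chains per B2m ran from 0.296 to 0.314 in control BM HSC and from 0.472 to 0.492 in PHZ BM HSC, and Cd74 per class II chain from 3.08 to 3.63 in PHZ SP HSC.

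The class II chains were lower in PHZ BM HSC than in control BM HSC on average, with no call. H2-Aa had 49.8, 49.4 and 37.4 FPKM in control BM HSC, 40.7, 36.5 and 22.3 in PHZ BM HSC, and 39.9 and 35.9 in PHZ SP HSC. H2-Ab1, its beta chain partner, had 37.4, 50.8 and 42.8 FPKM in control BM HSC, 36.2, 32.8 and 24.2 in PHZ BM HSC, and 36.7 and 32.8 in PHZ SP HSC. For H2-Ab1 every library of PHZ-treated mice lay below every control library, while for H2-Aa the groups overlapped. H2-Eb1, the chain without a partner in this strain, had 56.7, 42.4 and 31.0 FPKM in control BM HSC, 33.8, 30.8 and 17.5 in PHZ BM HSC, and 44.9 and 37.5 in PHZ SP HSC. Its control libraries alone spanned most of the range. PHZ BM HSC replicate 3 was the lowest library for all 3 chains.

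Between the marrow groups the differences were -0.48 ± 0.22 for H2-Aa, -0.49 ± 0.19 for H2-Ab1 and -0.65 ± 0.27 for H2-Eb1 (SE), with limma adjusted p-values of 0.304, 0.205 and 0.237. When 1 library was left out, they ranged from -0.64 to -0.22, from -0.60 to -0.32 and from -0.87 to -0.37. Against control BM HSC, PHZ SP HSC differed by -0.25, -0.31 and -0.04 for the same genes, with limma adjusted p-values of 0.665, 0.503 and 0.972. The intervals reach from -0.79 to 0.29 for H2-Aa and from -0.69 to 0.62 for H2-Eb1, so changes of that size are not excluded in either direction. For PHZ SP HSC minus PHZ BM HSC the differences were 0.23 ± 0.25, 0.18 ± 0.21 and 0.62 ± 0.30 in the same order, with limma adjusted p-values of 0.75, 0.778 and 0.393. The libraries of H2-Eb1 did not overlap between these groups, and those of H2-Aa and H2-Ab1 did. None of the 50-base windows of the 3 chains or of Cd74 occurred in transcripts of another gene.

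The invariant chain Cd74 (60803849 to 60812652 on chromosome 18) was the gene of the 10 that passed the threshold, and whether it differed from the class II chains was not tested. It had 86.5, 97.2 and 86.1 FPKM in control BM HSC, 72.6, 54.9 and 61.5 in PHZ BM HSC, and 125 and 129 in PHZ SP HSC. The 3 groups did not overlap: PHZ BM HSC were lowest and PHZ SP HSC highest. PHZ SP HSC exceeded PHZ BM HSC by 1.004 ± 0.15 (SE) on the log2(FPKM + 1) scale, a 2.01-fold higher level (limma adjusted p = 0.0146). Cd74 was the 1 gene of the 10 called in this comparison, where 0.978% of all genes tested were called, and the 1 with an unadjusted p below 0.05, against 13.5% of all genes. Of the 10, 4 had groups that did not overlap, against 34.8% of all genes. The call was lost when 1 library was left out, either PHZ SP HSC replicate 1 (adjusted p = 0.152) or 2 (0.09997) or PHZ BM HSC replicate 2 (0.0762), with differences of 1.03, 0.98 and 0.91.

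Against control BM HSC, Cd74 was different by 0.49 ± 0.15 in PHZ SP HSC (limma adjusted p = 0.159) and by -0.51 ± 0.14 in PHZ BM HSC (adjusted p = 0.0822), neither passing the threshold. Set against control BM HSC, PHZ SP HSC had none of the 10 called, where 0.758% of all genes were. Of the 10, 2 had an unadjusted p below 0.05 (B2m and Cd74), against 15.8% of all genes, and 5 had groups that did not overlap, against 28.9% of all genes. Cd74 stood at 1.80 to 2.32 times the mean of the 3 class II chains in control BM HSC and 1.65 to 2.88 times in PHZ BM HSC. In PHZ SP HSC it stood at 3.08 and 3.63 times, above all marrow libraries.

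Ciita was close to the lower limit of what was tested. It had 3.99, 1.54 and 0.538 FPKM (372, 133 and 66 reads) in control BM HSC, 0.350, 0.737 and 0.836 FPKM (35, 66 and 103 reads) in PHZ BM HSC, and 0.338 and 0.796 FPKM (36 and 79 reads) in PHZ SP HSC. Only control BM HSC replicates 1 and 2 reached 1 FPKM, and the gene was tested only through them. The groups overlapped, and the differences from control BM HSC were -0.73 ± 0.40 in PHZ BM HSC (limma adjusted p = 0.391) and -0.80 ± 0.45 in PHZ SP HSC (adjusted p = 0.419). Its difference of PHZ SP HSC from PHZ BM HSC was -0.07, with an interval from -1.06 to 0.92. When 1 library was left out, the differences from control BM HSC ranged from -1.13 to -0.28 in PHZ BM HSC and from -1.20 to -0.35 in PHZ SP HSC.

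**Figure D3:**
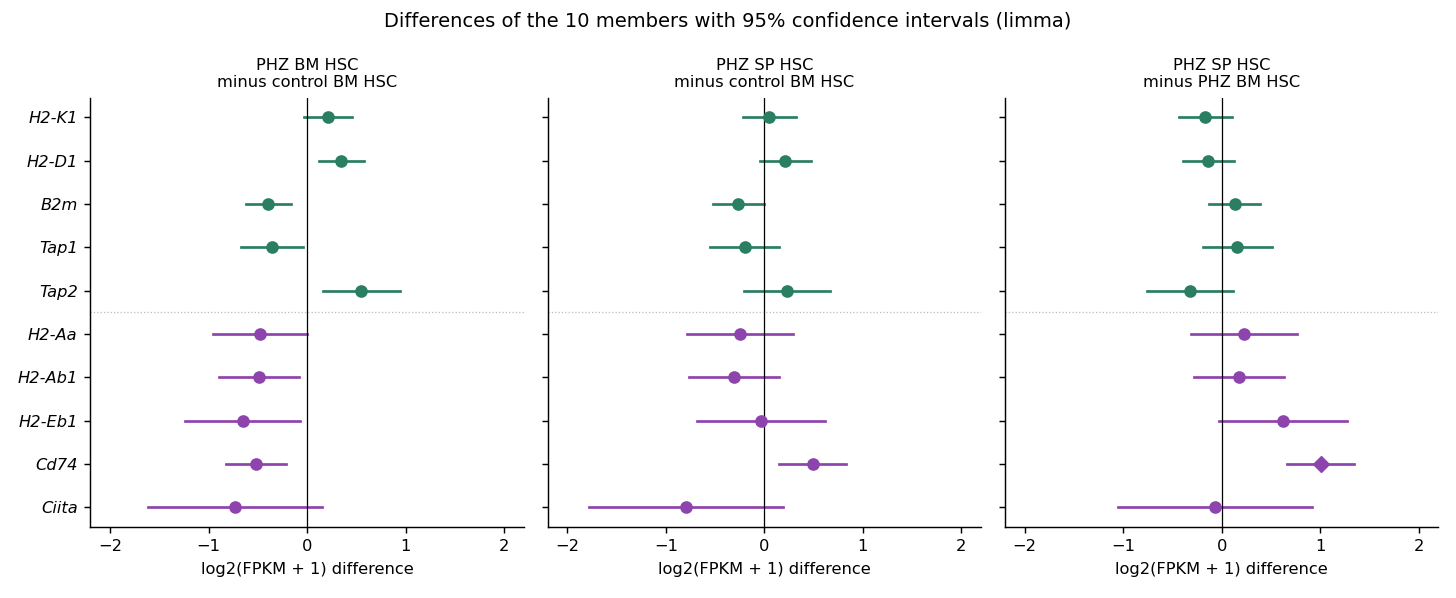
Difference of each gene on the log2(FPKM + 1) scale (horizontal axis) in the 3 comparisons, with 95% confidence intervals from limma; class I genes are above the dotted line and class II genes below it, and a diamond marks an adjusted p below 0.05. The only diamond is Cd74 in PHZ SP HSC minus PHZ BM HSC, at 1.004, and the 2 comparisons on the left share the control libraries.

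The class I heavy chains and the class II chains stood in unlike proportion in the 3 groups. This does not hold for class I as a whole. Between the marrow groups B2m and Tap1 had negative differences, as the class II chains did, and Tap2 a positive one. The summed heavy chains were 7.66 to 9.36 times the summed class II chains in control BM HSC, 13.004 to 17.8 times in PHZ BM HSC and 9.78 to 10.99 times in PHZ SP HSC. Across the 8 libraries, log2(FPKM + 1) of H2-K1 and H2-D1 had a Pearson r of 0.881, H2-Aa and H2-Eb1 0.922, and H2-Aa and H2-Ab1 0.847. B2m had r = 0.939 with H2-Aa and -0.482 with H2-D1. Ciita had r = -0.001 with Cd74. These values describe 8 libraries of 3 groups that share their scaling, and carry no test.

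The genes outside the 10 whose pattern was most like the mean of the class I genes were S1pr4 (r = 0.944), Slc5a6 (0.937), Fbh1 (0.936), Triobp (0.932) and Zfp647 (0.930), over 8 libraries. Those most like the mean of the class II genes were the long noncoding RNA Malat1 (r = 0.986), Ppp2r3a (0.967), Tatdn3 (0.963), Nup160 (0.956) and St5 (0.948). They are the highest of 11347 genes over only 8 libraries and are given as a description. The class I genes did not all share a pattern, with r = -0.853 between B2m and Tap2 and -0.826 between H2-D1 and Tap1. Likeness to their mean is therefore not likeness to each of them.

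Other genes of the pathway were examined in 5 lists. The list of class II loading, further chains and costimulation held the called genes, Ctss and Lgmn of 9 tested: both rose in spleen over either marrow group, Ctss also in PHZ BM HSC over control BM HSC, and none fell. Over all genes, 0.758% were called for spleen against control marrow, 0.978% for spleen against PHZ marrow and 2.74% between the marrow groups. The median difference of the 9 was 0.63 for PHZ SP HSC minus control BM HSC, -0.02 for PHZ SP HSC minus PHZ BM HSC and 0.23 for PHZ BM HSC minus control BM HSC. Cathepsin S, encoded by Ctss, trims the invariant chain and had 5.05, 6.35 and 10.8 FPKM in control BM HSC, 15.1, 15.5 and 20.3 in PHZ BM HSC, and 47.7 and 59.8 in PHZ SP HSC. The groups stood in 3 separate steps, with differences of 2.76 ± 0.28 for PHZ SP HSC over control BM HSC (limma adjusted p = 0.00162), 1.61 ± 0.28 over PHZ BM HSC (0.0268) and 1.14 ± 0.25 for PHZ BM HSC over control BM HSC (0.0347). The call over PHZ BM HSC was lost without either spleen library, and without the first or the second PHZ BM HSC library (adjusted p up to 0.152), and that between the marrow groups without any library but control BM HSC replicate 3 (up to 0.106) and with voom on reads (0.123).

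Legumain, encoded by Lgmn, is an endosomal protease that cuts antigens and the invariant chain. It had 0.617, 0.857 and 0.938 FPKM in control BM HSC, 1.56, 1.51 and 1.80 in PHZ BM HSC, and 10.05 and 9.89 in PHZ SP HSC. Again each group was apart from the others, by 2.61 ± 0.25 for PHZ SP HSC over control BM HSC (limma adjusted p = 0.00162) and 2.07 ± 0.25 over PHZ BM HSC (0.0052), the latter lost without either PHZ SP HSC library (0.091 without replicate 1 and 0.0528 without replicate 2). Both genes are also known from macrophages. Within the same list Ifi30, a thiol reductase of the endosome, had 11.9 and 15.8 FPKM in PHZ SP HSC and 2.4955 to 10.9 in the marrow libraries, without a call. H2-DMa, which exchanges peptides on class II molecules, had 40.7 and 30.2 FPKM in PHZ SP HSC and 41.9 to 63.3 FPKM in marrow, also without a call. The costimulatory genes Cd80, a ligand of CD28 on T cells, and Cd40, a receptor, stayed below 1 FPKM in every library and were not tested. Cd86, also costimulatory, was tested without a call. It had 0.0244 and 2.36 FPKM (1 and 90 reads) in PHZ SP HSC and 0.0838 to 1.36 FPKM in marrow.

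**Figure D4:**
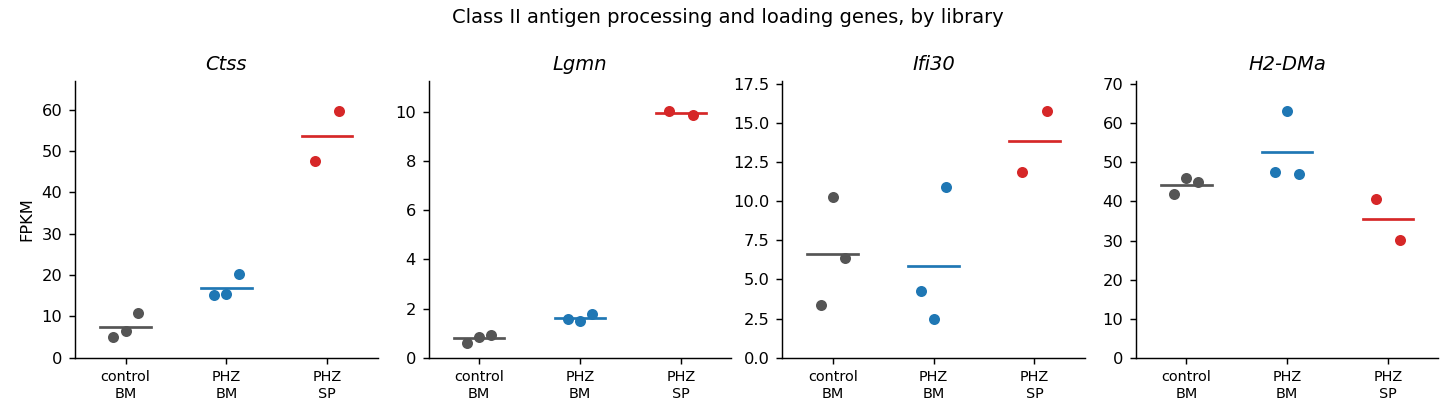
Levels (FPKM, vertical axes from 0) of 4 class II processing and loading genes in the 8 libraries, with bars at group means. Ctss and Lgmn are highest in both PHZ SP HSC libraries, at 47.7 and 59.8 FPKM and at 10.05 and 9.89 FPKM, while H2-DMa is lowest there.

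In the other 4 lists no gene was called in any comparison, out of 12 tested for class I loading and processing, 11 for other class I and class I-like genes, 7 for class II promoter factors and 10 for interferon gamma signalling. Their median differences lay between -0.19 and 0.21, beside -0.02 to 0.01 over all genes. The genes of smallest p in the first were the chaperones Calr and Canx and the peptide editor Tapbpl. Calr, which holds new heavy chains, had 66.8, 94.8 and 96.3 FPKM in control BM HSC, 125, 125 and 158 in PHZ BM HSC, and 128 and 113 in PHZ SP HSC. Canx, its membrane-bound relative, lay at 30.4 to 33.5 FPKM in control BM HSC, above all PHZ libraries at 17.985 to 24.6 FPKM. The differences between the marrow groups were 0.67 for Calr and -0.59 for Canx, with limma adjusted p-values of 0.063 and 0.093. Tapbpl differed by -1.002 in PHZ SP HSC against PHZ BM HSC (adjusted p = 0.12).

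Among the other class I genes, H2-Q4 had 21.1 and 18.8 FPKM in PHZ SP HSC, below all marrow libraries at 28.0 to 43.5 FPKM, and differed from PHZ BM HSC by -0.86 (limma adjusted p = 0.0708). The lipid-presenting molecule Cd1d1 lay at 27.0 to 32.3 FPKM in PHZ BM HSC, above 10.9 to 21.1 in control BM HSC (difference 0.86, adjusted p = 0.0769). H2-T23, a ligand of inhibitory receptors of NK cells, had 66.3 and 53.6 FPKM in PHZ SP HSC and 66.2 to 104 FPKM in marrow. The promoter factors Nfya, Nfyb and Rfx5, which bind class II promoters, lay between 0.954 and 6.90 FPKM in all libraries.

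Of the interferon gamma genes, the receptor subunit Ifngr2 had 8.43 and 6.91 FPKM in PHZ SP HSC, above 3.18 to 5.24 FPKM in marrow, and Ifngr1 was at 47.9 to 63.9 FPKM in PHZ BM HSC, above all other libraries. Neither passed the threshold.

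**Figure D5:**
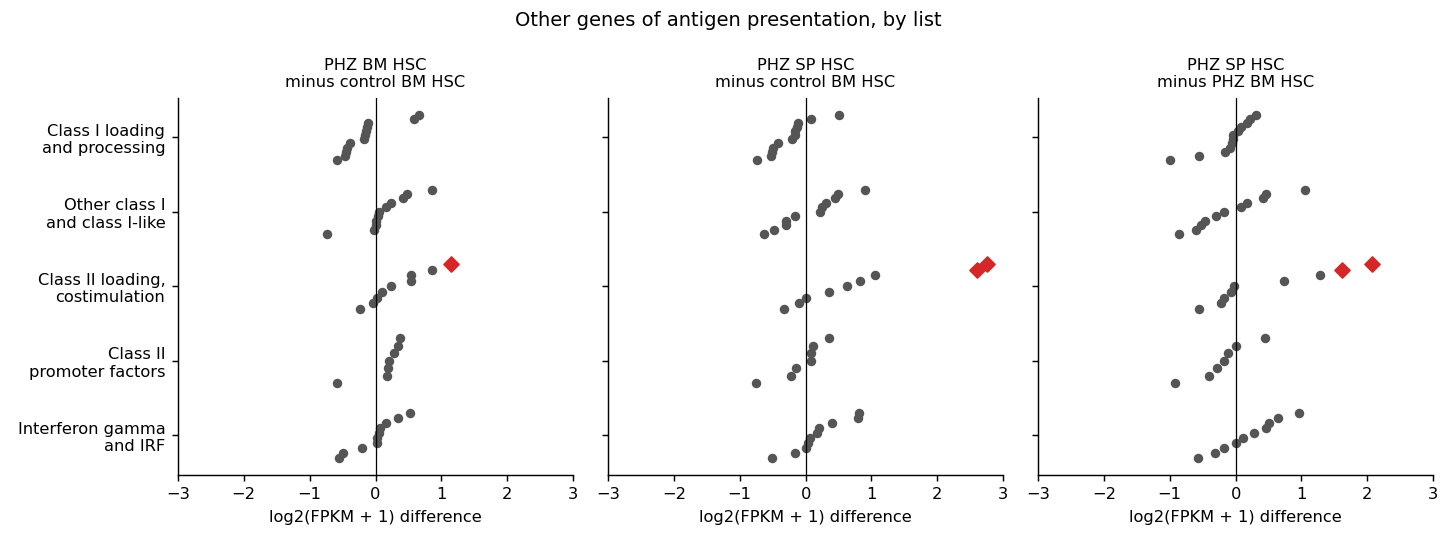
Differences on the log2(FPKM + 1) scale (horizontal axis) of the tested genes of 5 lists of antigen presentation genes, 1 point per gene, in the 3 comparisons; red diamonds mark an adjusted p below 0.05 in limma. The diamonds are Ctss and Lgmn in the list of class II loading, and all other points lie within 1.5 of 0.

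Cd74, Ctss and Lgmn are abundant in mature antigen-presenting cells, and levels of marker genes of such cells are given beside them. Of 10 B cell markers, 9 were in the tables, and their summed level was 28.2 to 51.1 FPKM in control BM HSC, 28.7 to 31.6 in PHZ BM HSC and 40.9 to 56.3 in PHZ SP HSC. Most of this was Cd79b, and without it the sums were 1.72 to 3.33, 1.44 to 3.48 and 9.11 to 12.8 FPKM. Cd79a had 5.03 and 3.03 FPKM in PHZ SP HSC and 0.0731 to 1.55 in marrow. Pax5 and Ebf1, which define the B lineage, stayed below 1 FPKM everywhere.

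The 12 macrophage and monocyte markers summed to 254 to 291 FPKM in control BM HSC, 205 to 264 in PHZ BM HSC and 351 to 358 in PHZ SP HSC, mostly Lyz2. Without Lyz2 the sums were 9.34 to 18.5, 11.5 to 24.1 and 40.8 to 70.5 FPKM. The largest share of the latter was Cd68, with 34.4 and 57.6 FPKM in PHZ SP HSC and 0 to 16.7 FPKM in marrow, and Ly6c2 was at most 4.91 FPKM. The rest of the list did not rise with Cd68: C1qa, C1qc, Mertk, Cd14 and Spic overlapped between spleen and marrow. C1qb was lower in spleen, at 0.0822 and 0 FPKM (1 and 0 reads) against 0.188 to 3.52 FPKM (2 to 41 reads). The macrophage receptor genes Adgre1 and Csf1r stayed below 1 FPKM in every library, with Adgre1 at 0 in 1 of the 2 PHZ SP HSC libraries, and Ms4a7 had 0.502 and 0 FPKM (25 and 0 reads) in PHZ SP HSC and at most 0.0857 FPKM (4 reads) in marrow. Of 10 dendritic cell markers, 9 were in the tables, and they summed to 4.67 to 6.62, 8.05 to 12.7 and 9.35 to 10.1 FPKM in the same order. Flt3 led them, and without it the sums were 0.904 to 2.49, 1.41 to 1.95 and 3.2 to 4.34 FPKM, with both spleen libraries above every marrow library. Itgax had 0.577 and 0.320 FPKM (31 and 16 reads) in PHZ SP HSC and 0 to 0.0483 FPKM (0 to 3 reads) in marrow. Cd209a had 0.282 and 1.09 FPKM (5 and 18 reads) in PHZ SP HSC and at most 0.140 FPKM (2 reads) in marrow, and Xcr1 was below 1 FPKM in every library. Their part in the levels of Cd74, Ctss and Lgmn was not tested.

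Markers of further lineages also differed. Whether their RNA came from HSCs or from other cells was not tested. The T and NK cell list summed to 22.4 to 66.9 FPKM in control BM HSC, 36.3 to 52.7 in PHZ BM HSC and 57.6 to 58.5 in PHZ SP HSC, so that spleen lay within the range of the controls. Its highest gene, Nkg7, had 26.9 and 27.9 FPKM in PHZ SP HSC and 19.1 to 59.7 FPKM in marrow, and without it the sums were 3.21 to 7.14, 7.03 to 8.55 and 30.6 to 30.7 FPKM. Klrb1c, with 14.7 and 18.4 FPKM in PHZ SP HSC and 0.555 to 3.07 in marrow, was called against both marrow groups. The neutrophil list summed to 319 to 659, 336 to 846 and 1302 to 1666 FPKM, with S100a8 called higher in spleen against both marrow groups. The erythroblast list summed to 22.7 to 37.5, 23.4 to 45.9 and 86.6 to 158 FPKM, with Slc4a1 called against both marrow groups and Klf1 against control BM HSC. Of these marker calls, that of Klrb1c against control BM HSC held without any single library, and each other call was lost without at least 1 library. Their part in the results on the 10 genes was not tested.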

How the data were processed

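RNA-seq was analysed in 8 libraries of HSCs. Per the methods, RNA was amplified with SMART-Seq2, made into Nextera XT libraries and mapped to mm10 with STAR; counter, annotation, strand and read length are not given in the sources used here. The authors deposited FPKM values in 3 tables scaled separately, and 2 tables of their own comparisons (fold changes and p-values), which were not used. FPKM steps gave whole reads for 100% of 110442 values above 0 (tolerance 0.001 reads). Depth factors in the control table equalled median-of-ratios factors over control BM and PHZ SP libraries, and in the PHZ tables those over PHZ BM and PHZ SP libraries. FPKM were rescaled by 1 set of such factors over the 8 libraries, moving none by more than 1.05%. Without molecular identifiers, PCR copies of a molecule count as separate reads.

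Groups came from sample titles. The marrow columns are named WBM where the titles say BM HSC. Genes in all tables with at least 1 FPKM in 2 libraries were tested, two-sided, with limma 3.58.1 in R 4.3.3 on log2(FPKM + 1), with intensity trend and robust variance, in 1 fit of 3 groups without covariates. A fold change on this scale understates changes of low genes. P-values were adjusted by Benjamini-Hochberg over 11347 genes, with a threshold of 0.05. The procedure was run on simulated counts with the same spread setting for all genes and changes only in PHZ SP HSC. That setting is simpler than these libraries, so it does not measure how the procedure performs on them. The 10 genes, the gene lists and the tests were chosen with earlier results of these data known. Named besides the 10 were called genes of each list or, where a pathway list had none, the 3 with the smallest p, up to 3 highest genes of each marker list, and the 5 genes most correlated with each class. Other genes named (H2-DMa, Ifi30, Cd80, Cd86, Cd40 and single markers at low levels) were chosen after their values were seen. Windows of 50 bases were compared with GENCODE M21 transcripts on both strands, and promoters were taken from RefSeq (GRCm38.p6). H2-Q1, H2-Q7, H2-M2, H2-Ea, Ighm, Clec10a and Eomes were not analysed here, and some genes that the rule names are not reported here. Python 3.11.15 was used otherwise. Alternatives were the pseudocount, the filter, the scaling, voom on reads, a fit of 2 groups, plain limma, a replicate block and leaving out each library.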

Additional observations from a re-analysis of the deposited data

How the results depend on the processing

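Deviations of same-numbered libraries from their group means correlated with r between -0.0079 and 0.0603, and those of other libraries between -0.0644 and 0.0687. With so few libraries, and with the deviations of the 2 PHZ SP HSC libraries mirroring each other, this cannot settle whether samples were paired. With the replicate block, B2m passed in PHZ BM HSC against control BM HSC (-0.39, limma adjusted p = 0.0208), giving 1 class I gene called, as did voom on reads. H2-K1 then turned to -0.031 for PHZ SP HSC minus control BM HSC, and of the other genes named Calr and H2-Q4 gained and S100a8 lost its calls. Calr also gained a call with voom (adjusted p = 0.0389). S100a8 lost at least 1 call with a pseudocount of 0.1 FPKM, no filter or neither limma option (0.0733 to 0.0953), and Klf1 lost its call with that pseudocount, no filter, voom or a fit of 2 groups (0.0621 to 0.0974). Ctss lost its call over PHZ BM HSC with no filter (0.0696) and with neither limma option (0.0587), and that between the marrow groups with these, voom or a fit of 2 groups (0.0615 to 0.123).

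The class II call in PHZ SP HSC against PHZ BM HSC (Cd74) fell to 0 without intensity trend and robust variance (adjusted p = 0.0834). It held under the other 7 alternatives with all libraries (adjusted p 0.0100 to 0.0373), and ranged from 0 to 1 call when libraries were left out, as did class I calls between the marrow groups (H2-D1).

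Of all genes, PHZ SP HSC minus control BM HSC gave 39 calls with a pseudocount of 0.1 FPKM, 46 with no filter and 44 in a fit of 2 groups, against 86. PHZ SP HSC against PHZ BM HSC gave 62 with no filter, 65 with voom and 63 with neither limma option, against 111. The marrow groups gave 205 with no filter and 204 with neither option, against 311. Leaving out single libraries gave 14 to 83, 5 to 148 and 114 to 306 calls. The cause was not tested.

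Signs turned for genes near 0 when a library was left out. H2-Eb1 for PHZ SP HSC minus control BM HSC ranged from -0.25 to 0.18 (without control BM HSC replicate 1) and was 0.09 without PHZ SP HSC replicate 2. In PHZ SP HSC against PHZ BM HSC, H2-Aa ranged from -0.025 (without PHZ BM HSC replicate 3) to 0.39 and Ciita from -0.28 to 0.14 (without PHZ SP HSC replicate 1). Scaling moved the median of all genes by less than 0.1.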
